A study of Homo sapiens with 4 samples.

Results

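Open chromatin was examined at 10 genes that make, restore or inactivate androgens: STS, HSD3B1, HSD17B3, AKR1C3, SRD5A1, HSD17B6, AKR1C1, AKR1C2, UGT2B15 and UGT2B17. They were chosen by name, from 19689 protein-coding genes of GENCODE in hg38, and every interval of both peak lists in each gene body and 50 kb either side was taken. ATAC-seq, the assay used, marks open DNA where the Tn5 transposase can insert sequencing adapters. C4-2B is a prostate adenocarcinoma line descended from LNCaP. C4-2BER was derived from C4-2B by lasting exposure to enzalutamide, an antiandrogen, was kept in the drug, and is labelled as neuroendocrine-like. Both grew in RPMI with fetal bovine serum. There were 2 libraries per line, pooled ahead of peak calling, so each line gave 1 list, with no spread between replicates and no test between lines. Each group is also a single cell line, so line and drug history cannot be told apart.

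Prostate cells obtain active androgen from circulating precursors as well as from testosterone. STS removes the sulfate from DHEA sulfate, HSD3B1 turns DHEA into androstenedione, HSD17B3 and AKR1C3 reduce androstenedione to testosterone, and SRD5A1 reduces steroid substrates in the 5α position on the way to dihydrotestosterone. HSD17B6 can oxidise androstanediol back to dihydrotestosterone. AKR1C1 and AKR1C2 reduce dihydrotestosterone to weak diols, and UGT2B15 and UGT2B17 attach glucuronic acid to androgens for export.

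The sequences below are those on which the comparison of the lines turned, in hg38 and 5′ to 3′. The first holds 200 bases on the summit of the strongest C4-2BER-only interval, at chr10:5147356-5147555 near AKR1C3. The HSD3B1 promoter window, chr1:119506973-119507172, is shown because its peak stood over 20 rank percentiles lower in C4-2BER. Both are on the plus strand, and capitals mark matches to the searched motifs that are spelled out further on.
AKR1C3 distal, C4-2BER only: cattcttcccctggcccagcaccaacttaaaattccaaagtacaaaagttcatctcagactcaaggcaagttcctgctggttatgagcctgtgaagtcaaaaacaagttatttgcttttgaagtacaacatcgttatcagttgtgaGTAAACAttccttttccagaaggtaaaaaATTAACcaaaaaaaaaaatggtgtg
HSD3B1 promoter: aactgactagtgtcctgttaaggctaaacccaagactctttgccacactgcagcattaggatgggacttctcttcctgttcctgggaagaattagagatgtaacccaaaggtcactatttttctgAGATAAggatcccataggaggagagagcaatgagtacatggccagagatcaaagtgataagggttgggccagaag

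AKR1C1 and AKR1C2 had a promoter peak in C4-2BER only, and their windows are set side by side because they are almost the same sequence. The AKR1C1 window is chr10:4963277-4963414 on the plus strand and the AKR1C2 window is chr10:5003858-5004001 on the minus strand. Both run from 100 bases before the summit to the base before the canonical start site, and capitals mark the bases that differ or have no partner in the other window.
AKR1C1 promoter: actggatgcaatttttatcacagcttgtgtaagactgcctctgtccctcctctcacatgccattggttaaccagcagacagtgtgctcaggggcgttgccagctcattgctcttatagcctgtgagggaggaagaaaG
AKR1C2 promoter: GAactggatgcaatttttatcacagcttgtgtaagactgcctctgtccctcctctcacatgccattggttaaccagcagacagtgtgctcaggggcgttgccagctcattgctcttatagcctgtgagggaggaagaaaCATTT
Of 144 aligned columns, 137 were identical. The run of bases shared exactly by the 2 promoters was longer still, at 300 bases, from −301 to −2 of the AKR1C1 start and from −305 to −6 of the AKR1C2 start, and it holds both summits.

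The intronic HSD17B6 window chr12:56759458-56759657, on the plus strand, is shown because its interval had the lowest ratio of reads among the shared ones. It was added after its values were seen and holds no searched motif.
HSD17B6 distal, lower in C4-2BER: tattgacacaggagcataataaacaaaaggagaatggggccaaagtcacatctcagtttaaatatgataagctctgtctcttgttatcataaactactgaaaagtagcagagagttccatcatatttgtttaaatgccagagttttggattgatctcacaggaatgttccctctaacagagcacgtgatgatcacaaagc

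The lists held 149676 intervals for C4-2B and 118728 for C4-2BER, behind which lay an estimated 30.2 M and 25.2 M reads, so C4-2B was sequenced 1.20 times as deeply. Reads at a summit were recovered from the deposited fold enrichment and −log10 p and are whole numbers. The promoters of the luminal markers KLK3, KLK2 and TMPRSS2 and of the neuroendocrine markers CHGA, SYP, ENO2 and NCAM1 were open in each list. The KLK3 promoter peak stood at rank percentile 80.9 in C4-2B and 42.3 in C4-2BER, over local backgrounds of 19.6 and 7.47 times the floor (the genome-wide mean read density), and that of NCAM1 at 43.8 and 77.6, with summits 1897 bp apart. A rank percentile is the place of a peak by −log10 p within its own list, with 100 as the strongest.

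The 10 genes lie in 7 separate regions, since the 3 AKR1C genes and the 2 UGT2B genes are neighbours. These regions held 66 C4-2B intervals, of which 47 overlapped a C4-2BER interval and 19 did not, and 59 C4-2BER intervals, of which 46 overlapped a C4-2B interval and 13 did not. The C4-2B-only share was 28.8% (Wilson 95% interval 19.3 to 40.6, counting error only), beside 37.7% of the whole C4-2B list. The C4-2BER-only share was 22.0% (13.4 to 34.1), beside 20.8% of the whole C4-2BER list. Both intervals hold the share of the whole list, so with every locus counted the enzyme loci were not set apart by either share. For C4-2B the interval moved just below that share when the SRD5A1 locus was left out. That step was no test, as described with that gene below. When the longer list was shortened to the length of the other, the shares became 22.6% and 32.2%, beside 29.1% and 27.7% of the whole lists, so the order of the lines at these loci depends on list length.

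Away from promoters, 18 of 54 C4-2B intervals (33.3%, 22.2 to 46.6) were in C4-2B only, beside 41.9% of all distal C4-2B intervals, and 10 of 46 C4-2BER intervals (21.7%, 12.3 to 35.6) were in C4-2BER only, beside 22.5%. At the promoters of the enzyme genes themselves, 0 of 8 C4-2B intervals were in C4-2B only (interval up to 32.4%), beside 16.2% of all C4-2B promoter intervals. Of 10 C4-2BER intervals there, 3 were in C4-2BER only (30.0%, 10.8 to 60.3), beside 13.6%. Both intervals hold the share of the list. An interval counts as promoter when it overlaps 2000 bp either side of the start of a protein-coding transcript. The line-only intervals were weak, with 12 to 62 reads in C4-2B and 7 to 31 reads in C4-2BER, and 7 and 3 of them passed a −log10 q of 10.

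**Figure D1:**
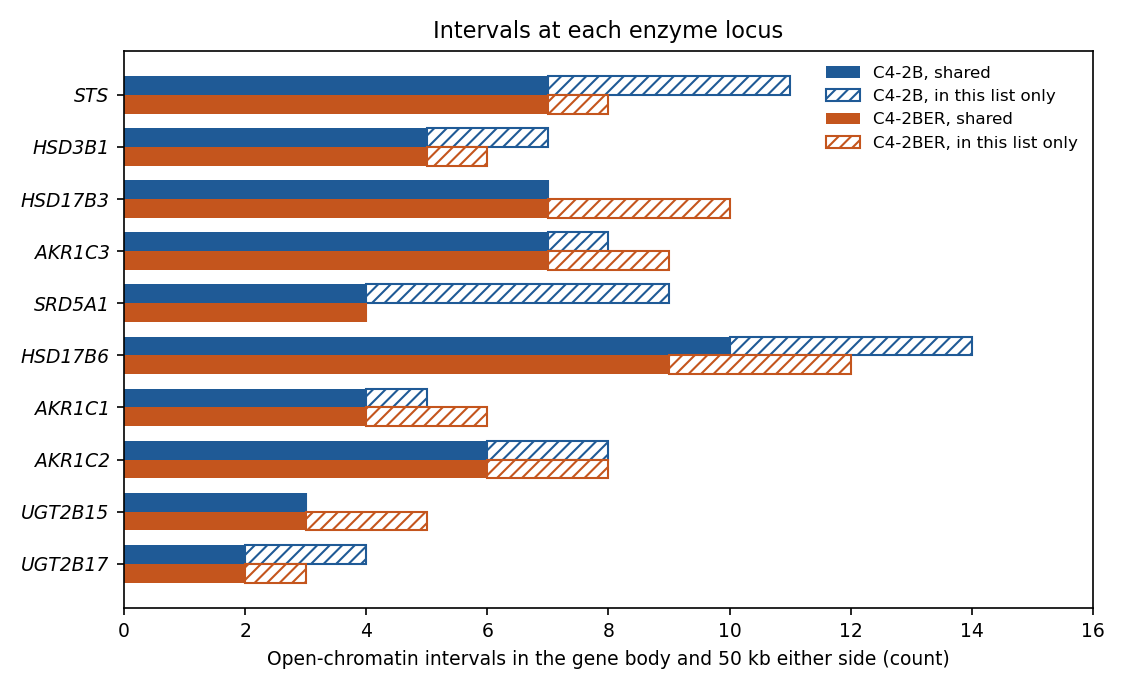
Number of open-chromatin intervals (x axis) in the body of each enzyme gene and 50 kb either side, in C4-2B (blue) and C4-2BER (orange). Filled bars are intervals that overlap one of the other list, and hatched bars are intervals in that list only. SRD5A1 had 5 C4-2B-only and 0 C4-2BER-only intervals, and HSD17B3 had 0 and 3. Neighbouring AKR1C and UGT2B genes share intervals, which are drawn at each.

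By gene, the counts ran from 3 (UGT2B15) to 14 (HSD17B6) in C4-2B and from 3 (UGT2B17) to 12 (HSD17B6) in C4-2BER. The median over all protein-coding genes was 12 and 10. STS, whose locus of 757 kb is the longest, held 1.45 and 1.06 intervals per 100 kb, where the median gene held 7.83 and 6.39. HSD17B6, at 10.3 and 8.85, was the only enzyme locus above that median in both lines.

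Of the 10 genes, 6 had promoter peaks in both lists (STS, HSD3B1, AKR1C3, SRD5A1, HSD17B6 and UGT2B15), and 2 had none in either (HSD17B3 and UGT2B17). AKR1C1 and AKR1C2 had one in C4-2BER only, and no gene had one in C4-2B only. Over all protein-coding genes, 3.39% had a promoter peak in C4-2BER only, 2.83% in C4-2B only and 16.0% in neither. The 2 C4-2BER-only genes of 10 give 20.0% (5.67 to 51.0, if taken as independent), but they share nearly all of their promoter sequence and are not separate observations.

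**Figure D2:**
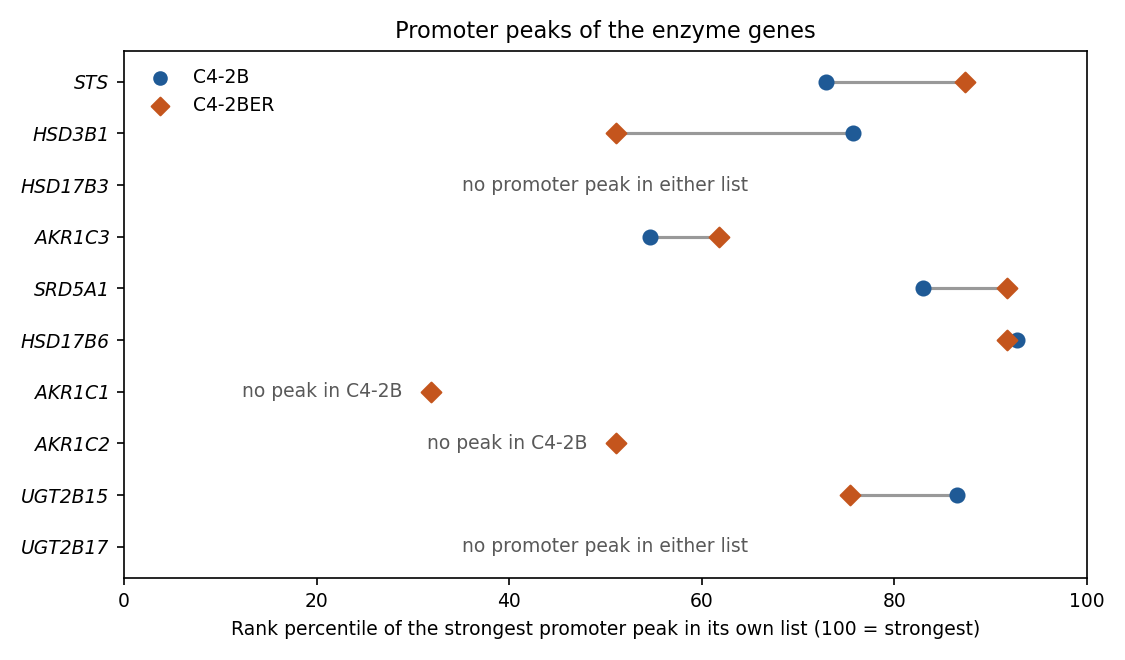
Rank percentile (x axis, 100 is the strongest peak) of the strongest promoter peak of each enzyme gene (rows) within the C4-2B list (blue circles) and the C4-2BER list (orange diamonds). Lines join the 2 values of a gene. STS, AKR1C3 and SRD5A1 ranked higher in C4-2BER, HSD3B1, HSD17B6 and UGT2B15 ranked lower, and AKR1C1 and AKR1C2 had a peak in C4-2BER only.

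Among the 6 genes with a peak in both lists, 3 ranked higher in C4-2BER and 3 lower, with a median difference of 3.05 percentile points. Over the 15305 protein-coding genes with both peaks the median difference was 0.59, 2.22% stood over 20 points lower in C4-2BER and 4.99% over 20 points higher.

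STS, which begins androgen supply from sulfated precursors, had a promoter peak at chrX:7147285-7148853 in C4-2B and chrX:7147285-7148861 in C4-2BER. It held 60 and 71 reads, at percentiles 72.9 and 87.4. The ratio of reads, C4-2BER to C4-2B scaled by depth, was 1.42 (95% interval 0.990 to 2.03), and counting error alone allows a ratio near 1. This interval also covers the promoter of the neighbour PUDP. The strongest site of the STS locus in both lists was chrX:7132258-7133005, in an intron of PUDP and at −15183 bp from the canonical STS start, with 100 and 70 reads (ratio 0.838, 0.608 to 1.15). The gene body of 657 kb was sparsely open. A site 104691 bp inside it had 50 and 24 reads (ratio 0.574, 0.338 to 0.952). Of the 4 C4-2B-only intervals the strongest, chrX:7105521-7105974 in an exon of PUDP, had 18 reads. The single C4-2BER-only one, chrX:7593110-7593341, had 12 reads and lies wholly in sequence that recurs in the genome, since 0% of its 50-base words occur once in hg38.

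HSD3B1, which catalyses the step from DHEA to androstenedione, had less open chromatin in C4-2BER at its promoter and at most of its shared sites. The promoter interval was chr1:119506789-119507278 in C4-2B and chr1:119507019-119507304 in C4-2BER. Its summit held 46 reads at percentile 75.7 in C4-2B and 19 reads at percentile 51.1 in C4-2BER, a depth-scaled ratio of 0.494 (0.273 to 0.860). The strongest C4-2B site was chr1:119542425-119543083, between genes and 35413 bp downstream of the start. It had 99 reads, and 32 at the nearest C4-2BER summit (ratio 0.387, 0.251 to 0.581). The strongest C4-2BER summit of that site had 41 reads. A further site, chr1:119498052-119498325, had 30 and 11 reads (ratio 0.439, 0.198 to 0.901), with only 51.1% of its 50-base words unique in hg38. These 3 of the 5 shared sites lay wholly below the median ratio of all shared pairs, 0.906. The strongest C4-2BER site, chr1:119549673-119550155, was at that median, with 62 C4-2B and 47 C4-2BER reads (ratio 0.907, 0.607 to 1.35). The strongest line-only intervals had 23 reads in either line, at chr1:119471167-119471394 in C4-2B and chr1:119544230-119544495 in C4-2BER.

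HSD17B3, the testicular enzyme for testosterone, had no promoter peak in either list within 2000 bp of its 4 start sites. Its locus held 7 C4-2B intervals, all shared, and 10 C4-2BER intervals, of which 3 were in C4-2BER only. The strongest site in both lists, chr9:96217864-96218752 between genes, had 75 and 78 reads (ratio 1.24, 0.895 to 1.73). Sites inside the neighbouring gene SLC35D2 were lower in C4-2BER or were not shown to change. The one at chr9:96322814-96323302 had 44 and 12 reads (ratio 0.326, 0.157 to 0.629), that at chr9:96320561-96321108 had 38 and 15 (ratio 0.472, 0.241 to 0.879), and that at chr9:96327597-96328008 had 16 and 21 (ratio 1.57, 0.781 to 3.22). The strongest C4-2BER-only interval, chr9:96186602-96187037, had 20 reads.

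AKR1C3, which makes testosterone in prostate tissue, had promoter peaks of similar strength in the 2 lists. The intervals were chr10:5094256-5094959 in C4-2B, with 30 reads at percentile 54.6, and chr10:5094210-5094961 in C4-2BER, with 28 reads at percentile 61.8. The strongest summits were 448 bp apart, at 387 bp inside the gene in C4-2B and 61 bp before the canonical start in C4-2BER, so no ratio is given between them. The C4-2BER summit nearest to the C4-2B one had 25 reads (ratio 0.997, 0.562 to 1.75). Most other sites of the locus lay in introns of the long AKR1C3 transcripts, of which the strongest by −log10 p was chr10:5089837-5090246 in C4-2B, with 37 and 21 reads (ratio 0.679, 0.378 to 1.19), and chr10:5043656-5044172 in C4-2BER, with 42 C4-2B and 32 C4-2BER reads (ratio 0.912, 0.557 to 1.48). The strongest C4-2B-only interval there, chr10:5045155-5045449, had 35 reads. The strongest C4-2BER-only interval of all the loci was chr10:5146924-5148342, between genes and 53042 bp downstream of the AKR1C3 start, with 31 reads at percentile 64.4.

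SRD5A1, the 5α-reductase, had strong peaks in both lists but more distal sites in C4-2B. The promoter intervals were chr5:6632892-6633916 in C4-2B, with 130 reads at percentile 83.0, and chr5:6632552-6633958 in C4-2BER, with 124 reads at percentile 91.7. The depth-scaled ratio was 1.14 (0.885 to 1.47), and the promoter of NSUN2 lies in the same interval. The rank was 8.7 points higher in C4-2BER by −log10 p, and 63.5 against 37.6 by fold enrichment. The local background at this summit was 10.6 (C4-2B) and 8.82 (C4-2BER) times the genome-wide floor, and its part in the ranks was not tested. An intronic site 3111 bp inside the gene, chr5:6636188-6636809, was the strongest of the locus in C4-2B, with 173 reads against 81 in C4-2BER (ratio 0.560, 0.425 to 0.733). In all 9 C4-2B intervals lay here, 5 of them in C4-2B only, and 4 C4-2BER intervals, all shared. Without the SRD5A1 locus, a setting chosen after seeing the data, the C4-2B-only share of the remaining loci was 24.6% (15.2 to 37.1). That interval lies just below the 37.7% of the whole C4-2B list, which the interval with SRD5A1 counted (19.3 to 40.6) held. Since 5 of the 9 C4-2B intervals at SRD5A1 were in C4-2B only, leaving them out had to lower the share. No other locus was left out, so this is no test of the remaining loci. The C4-2BER-only share without this locus was 23.6% (14.4 to 36.3), which still held the 20.8% of the whole C4-2BER list. These intervals cover counting error only.

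HSD17B6, which can restore dihydrotestosterone from its diol, had the densest locus, with ratios of reads from 0.315 to 2.02, the lowest and the highest of all the shared sites. Its strongest promoter peak lies at the upstream start site that it shares with PRIM1, at chr12:56751801-56752702 in C4-2B and chr12:56751288-56752672 in C4-2BER. It held 106 and 94 reads, at percentiles 92.8 and 91.7 (ratio 1.06, 0.795 to 1.41), a difference within counting error. That summit lies at −10918 bp from the canonical start site, which had a peak in C4-2BER only, chr12:56763153-56763403, with 25 reads at percentile 46.3. Inside the gene, chr12:56759122-56760133 had 114 C4-2B and 30 C4-2BER reads (ratio 0.315, 0.203 to 0.474), and chr12:56768220-56768844 had 53 and 16 (ratio 0.361, 0.193 to 0.642). These sites flank the canonical start on either side. Another intronic site, chr12:56774747-56774948, had 13 and 22 reads (ratio 2.02, 0.976 to 4.38). The strongest interval of the locus in both lists was the promoter of NACA, chr12:56724960-56725718, with 200 and 198 reads (ratio 1.18, 0.968 to 1.45). The strongest C4-2B-only interval, chr12:56780339-56780837 in an intron, had 23 reads.

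**Figure D3:**
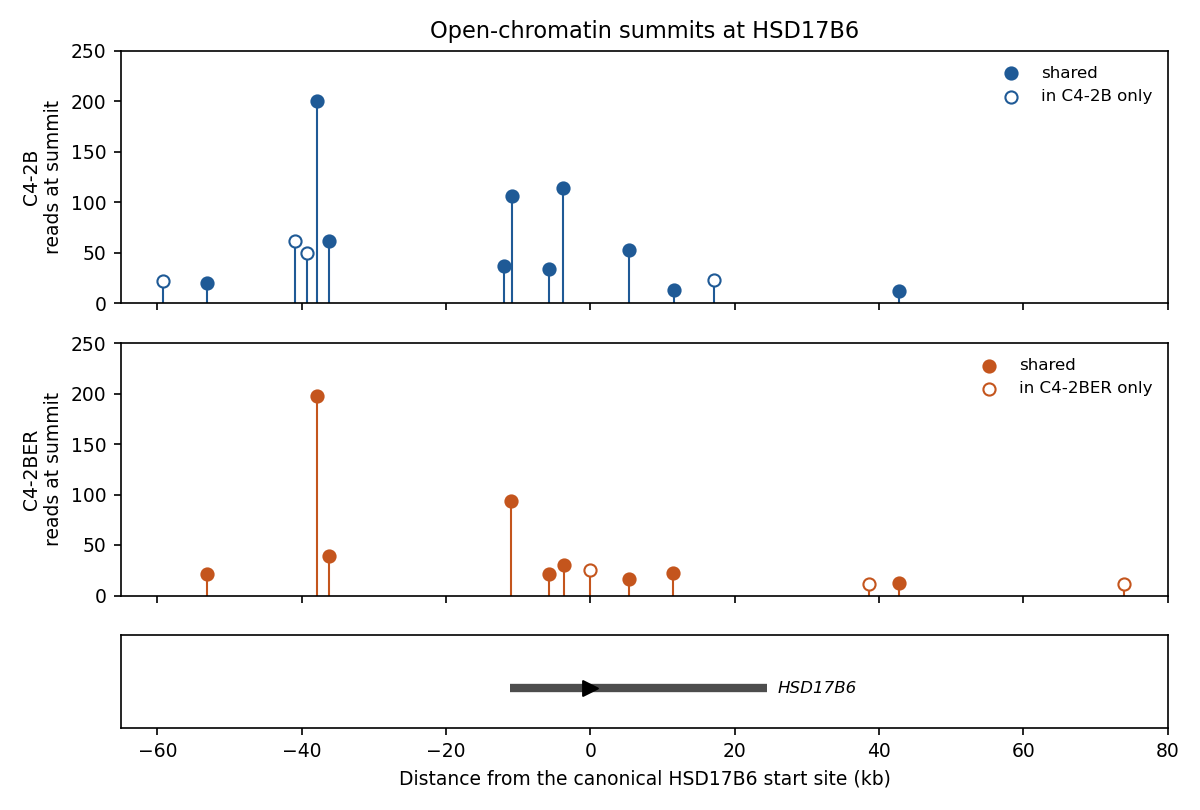
Reads at the strongest summit of each interval (y axis, not scaled for depth) against the distance in kb from the canonical HSD17B6 start site (x axis), in C4-2B (upper panel, blue) and C4-2BER (middle panel, orange). Filled points are shared intervals and open points are in 1 list only. The lower panel draws the gene, with its canonical start as a triangle. The sites just before and after the start are tall in C4-2B (114 and 53 reads) and low in C4-2BER (30 and 16), and the open point at the start (25 reads) is in C4-2BER only.

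AKR1C1 and AKR1C2, which reduce dihydrotestosterone, each had a weak promoter peak in C4-2BER and none in C4-2B. The AKR1C1 peak, chr10:4963268-4963484, had 14 reads at percentile 31.9, with its summit 38 bp before the canonical start. The AKR1C2 peak, chr10:5003751-5004036, had 19 reads at percentile 51.1, with its summit 45 bp before its start. At the depth of C4-2B these would be 16.8 and 22.7 reads. The C4-2B list holds called summits only, so its reads at these sites are not known. The part of depth was not tested. Reads from the sequence that the 2 genes share cannot all be placed. In hg38, 42.3% of the 50-base words of the AKR1C1 interval and 38.4% of those of the AKR1C2 interval occur once, whereas all of those around the canonical AKR1C3 start do (100%). Only reads with a mapping quality of at least 10 were kept, in pairs of 50 bases, so a read pair that falls inside the shared run has no unique place, and the part of this in the counts was not tested. With intervals under 90% unique words left out, a cut chosen after seeing the data, no enzyme gene had a promoter peak in C4-2BER only. Both AKR1C intervals fall under that cut by the shares above, so this outcome was fixed and is no test of the peaks. The same cut moved UGT2B15 from a promoter peak in both lists to none in either.

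Elsewhere at AKR1C1 and AKR1C2 the counting interval of every shared pair held the median of all pairs. The strongest C4-2BER interval, chr10:4982046-4982566 in an exon at the end of AKR1C1, had 38 reads, and its C4-2B partner had 32 (ratio 1.42, 0.864 to 2.35). At chr10:5015005-5015323, in an intron of AKR1C2, there were 32 and 27 reads (ratio 1.01, 0.582 to 1.74). The lowest ratios were at chr10:5013439-5013725, in the same gene, with 33 and 18 reads (ratio 0.653, 0.346 to 1.19), and at chr10:4947659-4948044, between genes, with 23 and 14 (ratio 0.728, 0.347 to 1.48). The only C4-2B-only interval in the AKR1C1 locus, chr10:4982768-4982983, had 13 reads. The strongest in the AKR1C2 locus was the one of 35 reads in the AKR1C3 intron, at percentile 56.5.

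**Figure D4:**
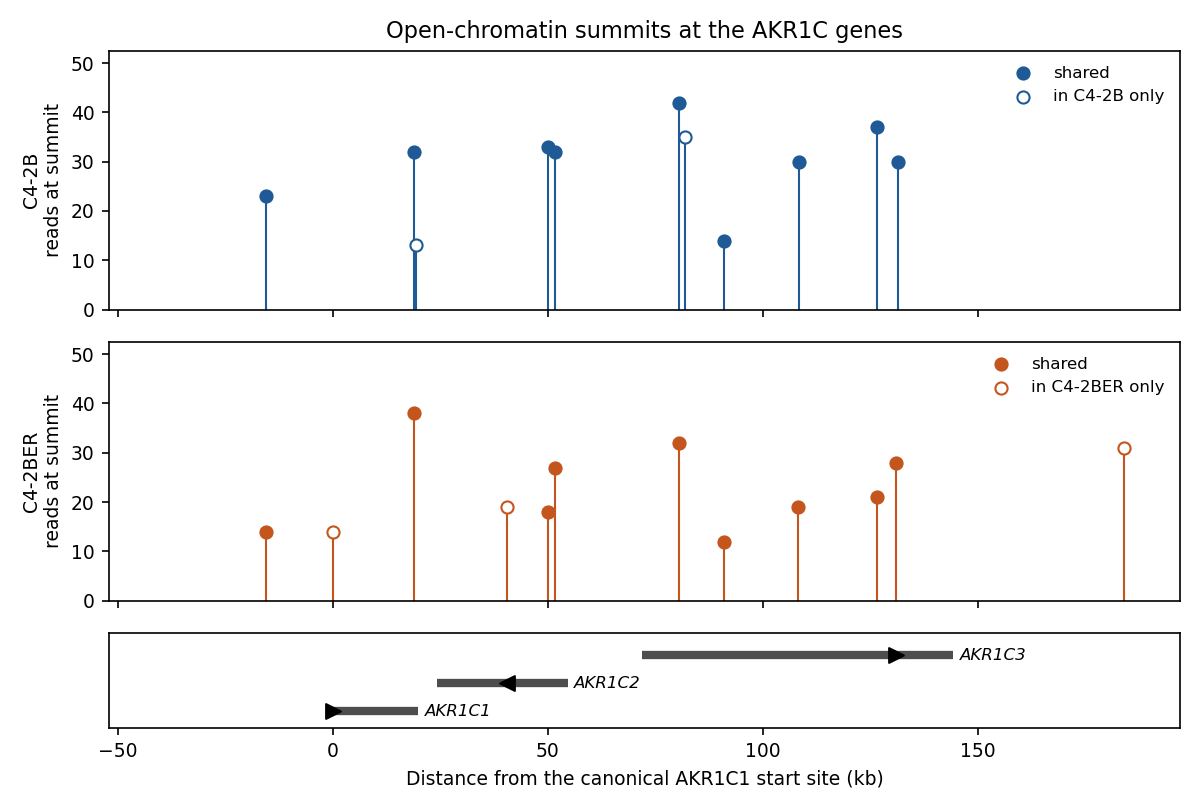
Reads at the strongest summit of each interval (y axis, not scaled for depth) along the AKR1C genes, by distance in kb from the canonical AKR1C1 start (x axis), in C4-2B (upper panel, blue) and C4-2BER (middle panel, orange). Filled points are shared intervals, open points are in 1 list only, and triangles in the lower panel mark canonical starts. Open points at the starts of AKR1C1 (14 reads) and AKR1C2 (19 reads) are in C4-2BER only, and the AKR1C3 start has a shared interval in both (30 and 28 reads).

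UGT2B15 and UGT2B17 differed from each other at the promoter. UGT2B15 had a peak in both lists, chr4:68670371-68671069 in C4-2B with 75 reads at percentile 86.5 and chr4:68670425-68671063 in C4-2BER with 40 reads at percentile 75.4. The ratio was 0.638 (0.424 to 0.949). A second interval of the same promoter, chr4:68671285-68671520, had 31 and 26 reads (ratio 1.00, 0.572 to 1.75). In these 2 C4-2B intervals 79.5% and 57.8% of the 50-base words occur once. UGT2B17 had no promoter peak in either list, although 95.8% of the words within 2000 bp of its canonical start are unique. Its nearest intervals were distal, the strongest being chr4:68498524-68498764 with 26 and 23 reads at percentiles 54.1 and 61.2 (ratio 1.06, 0.577 to 1.93). Line-only intervals in the UGT2B region had at most 21 reads in C4-2B (chr4:68506502-68506800) and 14 in C4-2BER (chr4:68622200-68622502).

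Over all 7 regions, 46 shared intervals had summits within 200 bp of each other in the 2 lists, and their reads were compared. A pair joins the strongest C4-2B summit of an interval to the nearest C4-2BER summit, which is not always the strongest there. Their median depth-scaled ratio was 0.901, beside 0.906 over all 91159 such pairs. Relative to that median, 23 were lower and 22 higher in C4-2BER. After division by that median, 5 pairs were at least 2 times lower in C4-2BER (10.9%, beside 10.4% of all pairs), and 1 was at least 2 times higher (2.17%, beside 3.87%). The counting interval lay wholly below the median of all pairs in 8 (17.4%, beside 16.6% of all pairs), of which 3 were at HSD3B1, 2 at HSD17B3, 2 at HSD17B6 and 1 at SRD5A1. It lay wholly above it in 3 (6.52%, beside 10.5%), which were the STS promoter, the NACA promoter and an intronic site of HSD17B6. The 36 distal pairs had a median ratio of 0.847 (0.830 over all distal pairs) and the 10 promoter pairs 1.04 (1.08 over all promoter pairs).

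**Figure D5:**
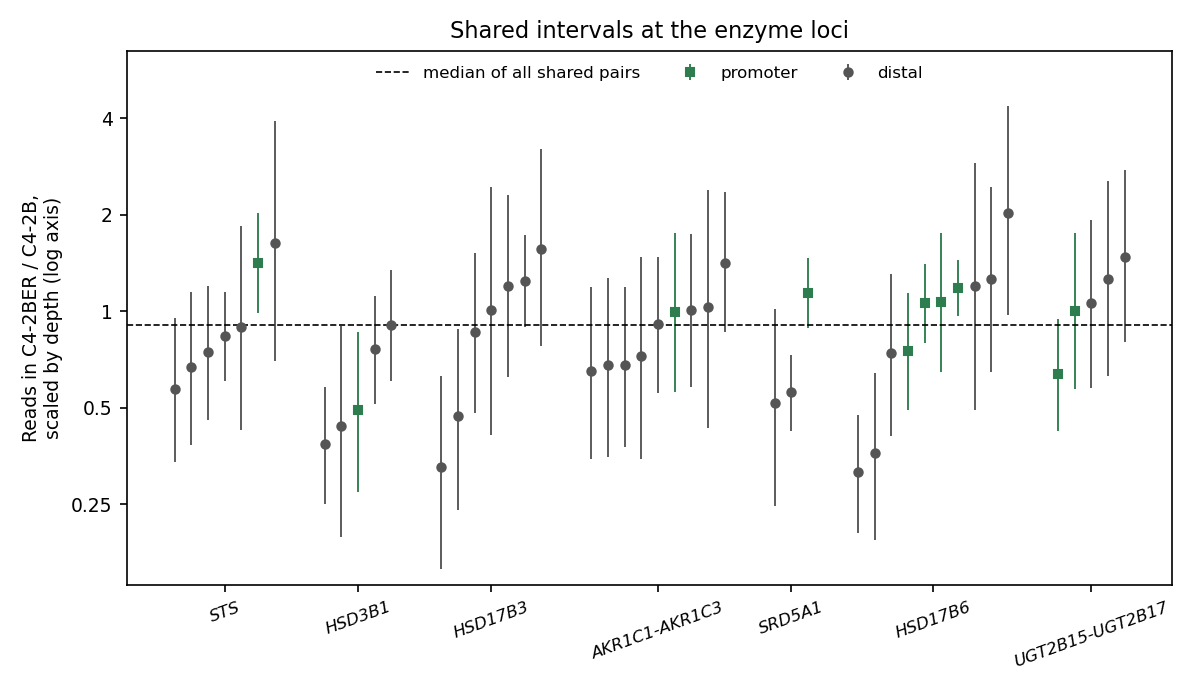
Reads in C4-2BER over reads in C4-2B, scaled by depth, on a log axis (y) for the 46 shared intervals, grouped by region (x) and ordered by ratio within it. Bars are 95% intervals of counting error, squares are promoter and circles distal intervals, and the dashed line is the median of all shared pairs, 0.906. The lowest ratios are at HSD17B6 (0.315 and 0.361), HSD17B3 (0.326) and HSD3B1 (0.387), and ratios of the AKR1C genes lie between 0.653 and 1.42.

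A list of 38 other genes of steroid synthesis, transport and conjugation was set beside the enzymes. A promoter peak stood in both lists for 29 of them, in C4-2B only for 2, in C4-2BER only for 2 and in neither for 5. With rank differences rounded to the precision given, 14 of the 29 ranked lower in C4-2BER and 14 higher. The remaining gene showed no difference at that precision. CYP17A1, the lyase that makes DHEA, had a promoter peak in C4-2BER only, with 66 reads at percentile 88.5 and its summit 2272 bp inside the start, as had UGT1A1, a bilirubin glucuronosyltransferase, with 26 reads at 66.9. HSD17B2, which inactivates testosterone, had one in C4-2B only, with 30 reads at 56.8, and so had UGT2B10, with 34 reads at 66.4. The largest differences downward in rank were those of UGT2B28 (percentile 86.1 to 20.9, 65 and 12 reads), CYP11A1, the side-chain cleavage enzyme (89.4 to 26.6, 83 and 13 reads), and DHRS9 (a difference of −57.0, at different start sites). The largest upward were AKR1C4 (32.4 to 57.4), SLCO2B1, a steroid sulfate carrier (39.4 to 49.5), and STAR, the cholesterol carrier of mitochondria (4.71 to 13.0). AKR1C4 and SLCO2B1 compare summits 2029 and 640 bp apart, and SLCO2B1 had 22 reads in each list. STAR had 15 reads in each list (ratio 1.20, 0.545 to 2.63), and counting error alone allows no change there.

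The glucuronosyltransferases of the UGT2B family were grouped after their values were seen, so their common direction is no test. Of 7 listed UGT2B genes, 5 had peaks at the promoter in each list, and all 5 ranked lower in C4-2BER. UGT2B10 had one in C4-2B only, and UGT2B17 had none. Over the 15305 protein-coding genes with both peaks, the quartiles of the rank difference were −0.83 and 3.64. Of these genes, 2.22% stood over 20 points lower in C4-2BER. The depth-scaled ratio of reads was 0.221 (0.109 to 0.413) at UGT2B28, 0.370 (0.182 to 0.703) at UGT2B7 and 0.509 (0.270 to 0.918) at UGT2B11, against 0.638 (0.424 to 0.949) at UGT2B15. The intervals of UGT2B11 and UGT2B15 hold the median of all shared pairs, 0.906. UGT2B4 stood at percentiles 34.3 and 9.40, with summits 30097 bp apart. These genes lie side by side and resemble each other, so they are not independent, and the share of their reads with a unique place was computed at UGT2B15 and UGT2B17 only.

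Sequence windows of 200 bases on each summit were searched on both strands for 7 motifs. They were the androgen response element (half-site AGAACA, 3 bases, then half-site TGTTCT), the forkhead motif as TGTTTAC or else as TGTTTGC, the antioxidant response element as TGACNNNGC, the AP-1 motif as TGANTCA, the HNF1 half-site as GTTAAT, the motif of GATA factors as AGATAA and the E-box as CAGCTG. The androgen response element in this exact form was in 0 of the enzyme windows, and in only 0.0488% of all C4-2B and 0.0143% of all C4-2BER windows. Forkhead letters were in 13 of 66 C4-2B windows (19.7%, beside 16.9% of the list) and 11 of 59 C4-2BER windows (18.6%, beside 13.1%). GATA letters were in 12 C4-2B windows (18.2%, beside 11.7%) and 8 C4-2BER windows (13.6%, beside 9.79%). Antioxidant response letters, of interest because AKR1C genes are known targets of NRF2, were in 7 C4-2B windows (10.6%, beside 10.00%) and 8 C4-2BER windows (13.6%, beside 9.84%). AP-1 letters were in 4 C4-2B windows (6.06%, beside 10.0%) and 5 C4-2BER windows (8.47%, beside 9.19%). The HNF1 half-site was in 3 windows of each list (4.55%, beside 5.05%, and 5.08%, beside 5.42%). E-box letters were in 9 C4-2B windows (13.6%, beside 13.6%) and 7 C4-2BER windows (11.9%, beside 13.8%). In the windows printed above, the AKR1C3 distal interval held forkhead letters at base 147 and an HNF1 half-site at base 176, and the HSD3B1 promoter held GATA letters at base 126. Of the RefSeq promoters (GRCh38.p14, 250 bases before to 50 after the start) 8 of the 10 genes were matched, without HSD17B6 and UGT2B17. Forkhead letters were in those of AKR1C3 and UGT2B15 (7.17% of all promoters) AP-1 letters in that of HSD17B3 (7.71%), and GATA and E-box letters in that of HSD3B1 (10.3% and 17.9%). The RefSeq promoters of AKR1C1 and AKR1C2 were 93.5% identical, and they were 71.3% and 70.4% identical to that of AKR1C3.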

How the data were processed

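ATAC-seq libraries of C4-2B and C4-2BER (2 each) were sequenced in pairs of 50 bases, aligned to hg38 with Bowtie2, filtered for mapping quality and duplicates, merged per line and peaks called with macs2. The macs2 version is not given in the sources used here, and the shift is given as 100 with no minus sign. The authors deposited, per summit, the fold enrichment (a ratio), −log10 p and −log10 q values, a score derived from q and the summit offset. Here, rows sharing an interval were counted once, at the summit of highest −log10 p, and shared means an overlap of at least 1 bp. Reads were recovered for every summit from the deposited ratio and −log10 p, a step tested on 2995 simulated summits (100% recovered). Depth assumes the macs2 genome size of 2700000000 bp, and the depth ratio of 1.20 does not. Intervals of shares (Wilson) and of read ratios (exact binomial, Clopper-Pearson) are at 95% and cover counting error only. Genes, exons of canonical transcripts and start sites are from GENCODE 44. Uniqueness is the share of 50-base words that occur once in hg38 on either strand. Python 3.11.15 and scipy 1.17.1 were used. All 10 genes were described, at each locus with the strongest interval and the strongest line-only interval of each list, except for a few items not reported here. Other steroid genes were named if in 1 list only or among the 3 largest rank changes either way. Genes, lists and rules were chosen with earlier results of these data known. Thresholds, list length, flanks, overlap rules and promoter windows were varied.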

Additional observations from a re-analysis of the deposited data

How the results depend on the processing

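No paired analysis was possible because each line has a single list called on pooled libraries, and for the same reason no replicate could be left out. A −log10 q of at least 10 gave 35 C4-2BER intervals at the loci in place of 59, and 1 gene with a promoter peak in C4-2BER only (AKR1C2) in place of 2. Gene bodies alone held 29 C4-2B and 28 C4-2BER intervals, 10 kb either side 34 and 31, and 100 kb either side 102 and 96, in place of 66 and 59, since the span searched changes. Strong intervals set against every interval of the other list were line-only in 15.6% (C4-2B) and 8.57% (C4-2BER), beside 22.2% and 7.31% of the whole lists, in place of 28.8% and 22.0%. Leaving out intervals with under 90% unique words, chosen after seeing the data, left 0 genes with a promoter peak in C4-2BER only, in place of 2, and 5 with none in either list, in place of 2. The genes that moved were AKR1C1, AKR1C2 and UGT2B15, whose promoter intervals all fall under that cut, so this is no test of their peaks. With canonical start sites alone, 3 genes had a promoter peak in C4-2BER only, HSD17B6 being added. The other 60 comparisons of counts and shares stayed within 1.5 times the count or inside the interval of the share, and no rank difference of a gene changed sign. The fewest reads at a listed site were 8 (C4-2B) and 7 (C4-2BER), and a site over a higher local background needs more to be called. A site missing from a list may thus be present below what was called there.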
